A study of Mus musculus with 6 samples.

Results

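The acrosome is the secretory cap of the sperm head, and this account follows 10 genes for proteins of its matrix and membranes, with 1 gene of the head-to-tail junction among them. They were taken by symbol: Zpbp, Zpbp2, Zp3r, Spam1, Hyal5, Acrv1, Spaca1, Spaca3, Spaca7 and Sun5. All 10 were found among 25165 gene symbols and all 10 passed the filter on low values, which left 12952 tested genes. RNA came from whole testes of C57BL/6 mice aged 8 weeks, in 3 libraries with KO in their title and 3 with WT. The KO lacks the long non-coding RNA Teshl, given in the labels as a homozygous loss with no cell type named. The genotype field of the labels contradicts the titles in all 6 libraries, so libraries are called KO or WT here by their titles, and every difference is KO minus WT. The labels do not say whether libraries of a group came from separate or pooled animals, so p-values here take in only how these libraries vary, part of which may be technical.

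The acrosome forms from Golgi vesicles in round spermatids and spreads over the nucleus as the spermatid elongates. Its matrix holds hyaluronidases, proteases and zona-binding proteins that are set free when the sperm meets the egg coats, and its inner membrane is fastened to the nuclear envelope. At the other pole of the nucleus, SUN-domain proteins of the envelope take part in fixing the tail to the head. Most mRNAs for these proteins are made in haploid spermatids, which abound in the adult testis.

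None of the 10 genes passed the test between the groups, and in each the libraries of the groups overlapped. By limma on log2(FPKM + 1), with Benjamini-Hochberg adjustment over all tested genes, 0 of 10 had an adjusted p under 0.05, beside 1.15% of all tested genes. At an unadjusted p under 0.05 there was 1 of 10, Sun5, beside 14.3% of all tested genes. Groups without overlap were seen in 0 of 10, beside 21.7% of all tested genes. The log2 fold changes lay between -0.05 (Zpbp2) and 0.27 (Sun5) with a median of 0.10, beside a median of -0.04 over all tested genes. They were above 0 in 9 of the 10, beside 34.3% of all tested genes. Log2 fold changes were also above 0 in 17 of 23 other acrosome content and membrane genes (median 0.06). The same held in 9 of 12 round spermatid markers that are not acrosome genes (median 0.07). In head-to-tail and acrosome biogenesis genes it was so in 7 of 12 (median 0.01) and 8 of 23 (median -0.05). Without KO replicate 2, 5 of the 10 genes were above 0 and their median was -0.0066. The median of the 10 genes was 0.022 without WT replicate 2 and 0.18 without WT replicate 3. With the mean log2 value of those 12 round spermatid markers set equal in all libraries, it was 0.039, with 7 of 10 above 0. KO replicate 2 held the highest value of 9 of the 10, beside 19.3% of all tested genes.

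The labels were checked by the targeted gene, 1700027A15Rik. It was at 1028, 989 and 1081 FPKM in the WT libraries and at 0.385 FPKM, 0 and 0 in the KO libraries, so its level follows the titles and contradicts the genotype field. Judged from the steps between very low values, each library held about 27900000 to 40300000 fragments. The 12 elongating spermatid markers summed to 32450 to 40080 FPKM, where all genes of a library summed to 393622 to 413604 FPKM. The 8 Leydig cell markers summed to 1541 to 1780 FPKM and the 11 Sertoli cell markers to 455 to 544 FPKM. Such sums over chosen genes do not measure the share of a cell type. The 10 epididymis markers summed to 3.71 to 4.72 FPKM, with 2 of them at 0 in all libraries. In RNA from a whole organ, fewer cells of a type and less RNA per cell cannot be told apart.

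The DNA just before the start of some of these genes is shown here to set the starts of the 10 side by side. In the first set, capitals mark the letters TGANGTCA, the cAMP response element TGACGTCA with 1 letter left free, an element to which the spermatid factor CREM binds. Each stretch runs from 110 to 11 bases before the RefSeq start, 5′ to 3′ on the strand of the gene, in GRCm38.p6.
Spam1, chr6:24791078-24791177, plus strand: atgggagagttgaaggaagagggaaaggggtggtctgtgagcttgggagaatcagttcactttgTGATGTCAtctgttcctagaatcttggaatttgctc
Hyal5, chr6:24857887-24857986, plus strand: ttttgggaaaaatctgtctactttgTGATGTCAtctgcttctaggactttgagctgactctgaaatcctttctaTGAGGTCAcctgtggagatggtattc
Spaca7, chr8:12572926-12573025, plus strand: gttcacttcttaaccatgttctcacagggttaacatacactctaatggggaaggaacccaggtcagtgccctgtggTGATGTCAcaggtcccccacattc
Sun5, chr2:153871095-153871194, minus strand: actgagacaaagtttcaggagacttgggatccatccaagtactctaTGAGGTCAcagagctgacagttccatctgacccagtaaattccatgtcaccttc

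The letters TGANGTCA, read on both strands, lay within 250 bases before the start of 5 of the 10 genes, Spaca3 besides these 4, and in 7.49% of 32851 RefSeq start windows of that length. The narrower TGATGTCA, which overlaps it, was found in Spam1, Hyal5, Spaca7 and Sun5 and in 2.93% of windows. The full palindrome TGACGTCA was found in 0 of the 10 and in 1.55% of windows. Spam1 and Hyal5 share the unbroken run actttgtgatgtcatctg, of 18 bases, which begins 52 bases before the start of Spam1 and 91 before that of Hyal5 and occurs in 0 windows of other genes. These motifs were chosen after the sequences had been read, and a match of letters is a description of the DNA only.

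A second pair of stretches shows 2 other kinds of start. In Acrv1, whose promoter is known for GTGTGT repeats bound by the protein TDP-43, capitals mark GTGTGT or its complement, from 190 to 91 bases before the start. In Zpbp2 capitals mark CG dinucleotides, from 110 to 11 bases before the start.
Acrv1, chr9:36693030-36693129, plus strand: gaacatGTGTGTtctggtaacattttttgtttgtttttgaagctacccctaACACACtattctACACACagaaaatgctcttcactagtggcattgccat
Zpbp2, chr11:98550987-98551086, plus strand: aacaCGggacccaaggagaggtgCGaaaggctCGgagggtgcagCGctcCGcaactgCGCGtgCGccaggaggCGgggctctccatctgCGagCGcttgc

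GTGTGT, on either strand, was found before the start of Acrv1 and Spaca7 and in 14.9% of windows. The 250 bases before the start held 19 CG dinucleotides in Zpbp2 and 13 in Spaca1. The other genes held between 0 and 5, with 0 in Zp3r, Spam1, Hyal5 and Acrv1. Over all windows the median was 6 and the quartiles 2 and 16.

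The levels of the 10 genes ran from Acrv1 at a mean of 163 FPKM over the 6 libraries to Spam1 at 31.0 FPKM. Zpbp2 followed Acrv1 at 147 FPKM, then Spaca1 at 103, Spaca3 at 86.3, Spaca7 at 63.8, Zpbp at 52.7, Hyal5 at 50.6, Zp3r at 44.8 and Sun5 at 44.4 FPKM. Ranges over libraries did not overlap between Zpbp2 and Spaca1 or between Sun5 and Spam1. All other neighbours in this order overlapped in range: Zp3r was above Sun5 in 3 of 6 libraries, Zpbp above Hyal5 in 4 and Acrv1 above Zpbp2 in 5. For Spaca1 over Spaca3, Spaca3 over Spaca7, Spaca7 over Zpbp and Hyal5 over Zp3r the order held in all 6 libraries.

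**Figure D1:**
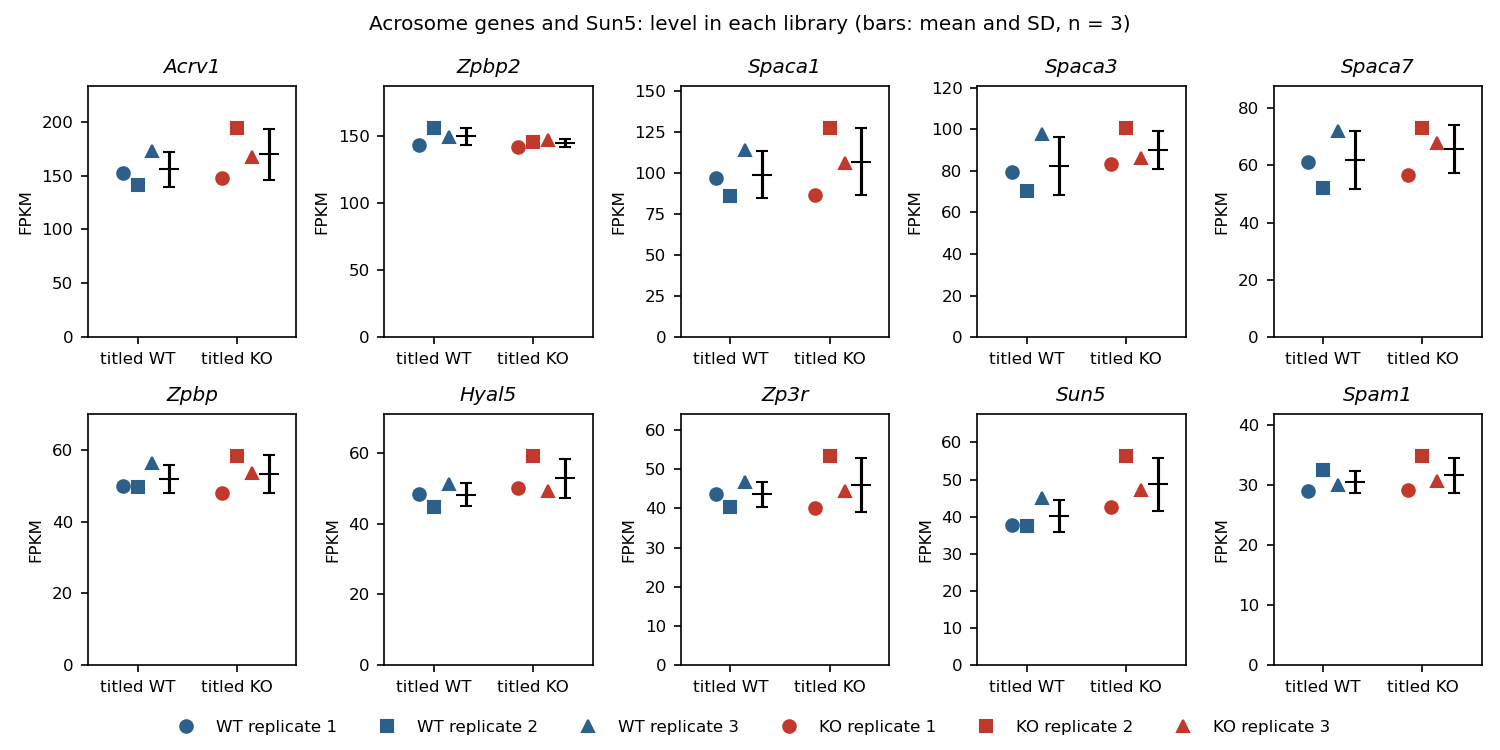
FPKM of each gene (vertical axes from 0) in the 3 WT libraries (blue) and the 3 KO libraries (red), with marker shape for the replicate and bars for mean and SD (n = 3). In all 10 genes the groups overlap, and KO replicate 2 (red square) is the highest library in 9.

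The zona pellucida binding proteins Zpbp and Zpbp2 sit in the acrosomal matrix and are needed for its compaction and for a normal sperm head. Zpbp lies on chromosome 11 at 11279626 to 11462408 of GRCm38 (minus strand, 8 exons in its coding transcript). It was at 48.0, 58.5 and 53.6 FPKM in the KO libraries and 49.95, 49.6 and 56.4 in the WT libraries. The groups overlapped, with the lowest and the highest library both from the KO group. That gave a log2 fold change of 0.04 (SE 0.08, 95% interval -0.15 to 0.22, limma adjusted p = 0.842). Exons of Spata48, on the opposite strand, overlap those of Zpbp. As no source used here states whether counting used strand, their reads cannot be told apart. Spata48 was at 42.8 ± 3.59 FPKM in the KO libraries against 36.6 ± 2.60 in the WT libraries (SD, n = 3 each, limma adjusted p = 0.247). Its log2 fold change was 0.22 (limma unadjusted p = 0.0165), and its groups did not overlap, as in 21.7% of all tested genes.

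Zpbp2, on chromosome 11 at 98551097 to 98558665 (plus strand, 7 exons in the longest coding transcript), was the steadiest of the 10. Its values were 141, 145 and 147 FPKM in the KO libraries and 143, 156 and 149 in the WT libraries. All 6 libraries lay within 1.10-fold of each other, and WT replicate 2 was the highest. On the log2 scale the difference was -0.05 (SE 0.05, 95% interval -0.16 to 0.07, limma adjusted p = 0.653), so the interval of the fold on the FPKM + 1 scale ran from 0.894 to 1.05.

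Zp3r, also called sp56, is a matrix protein of complement-control repeats that binds the zona pellucida, and its gene lies on chromosome 1 at 130576713 to 130629621 (minus strand, 12 exons). It was at 40.2, 53.5 and 44.4 FPKM in the KO libraries and 43.7, 40.3 and 46.8 in the WT libraries. The KO libraries enclosed all the WT libraries. In the limma fit the difference was 0.07 (SE 0.10, 95% interval -0.17 to 0.30, limma adjusted p = 0.751). It shares 72.6% identity with C4bp over 489 bases, 23.9% of its longest transcript.

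The pair of sperm hyaluronidases loosens the hyaluronan between the cumulus cells around the egg. Spam1, also known as PH-20, is held in the sperm membrane by a lipid anchor. It lies on chromosome 6 at 24791188 to 24801048, and Hyal5 at 24857997 to 24891958 on the same plus strand. Their longest transcripts are 71.4% identical over 78.8% of that of Spam1. No other gene matched a transcript of the 10 genes at 90% identity or more over at least 50% of its length.

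Spam1 was at 29.2, 34.9 and 30.7 FPKM in the KO libraries and 29.0, 32.5 and 30.0 in the WT libraries. The groups lay on top of each other except for KO replicate 2. The log2 fold change was 0.05 (SE 0.08, 95% interval -0.12 to 0.22, limma adjusted p = 0.775). Hyal5 was at 50.2, 59.4 and 49.2 FPKM in the KO libraries and 48.6, 44.8 and 51.3 in the WT libraries. Here WT replicate 2 was the lowest library, whereas in Spam1 it was second only to KO replicate 2. The log2 fold change of Hyal5 was 0.13 (SE 0.08, 95% interval -0.05 to 0.31, limma adjusted p = 0.473). Hyal5 was above Spam1 in every library. Of the other hyaluronidase genes, Hyal6 was at 24.1 to 29.0 FPKM, Hyal4 at 0.0976 to 0.162 FPKM, Hyal2 at 1.40 to 1.90 FPKM, and Hyal1 and Hyal3 were listed at 0 in all 6 libraries.

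Acrv1 encodes SP-10, a matrix protein made from the round spermatid stage on, and was the highest of the 10. It lies on chromosome 9 at 36693220 to 36698843 (plus strand, 4 exons). Its values were 147, 194 and 167 FPKM in the KO libraries and 153, 141 and 173 in the WT libraries. WT replicate 3 stood above 2 of the KO libraries. That gave a log2 fold change of 0.12 (SE 0.11, 95% interval -0.14 to 0.38, limma adjusted p = 0.619).

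Spaca1 is a membrane protein of the inner acrosomal side whose loss gives round-headed sperm in mice. Its gene, on chromosome 4 at 34024874 to 34050191 (minus strand, 7 exons), had the widest spread between libraries of one group on the log2 scale. It was at 86.5, 127 and 106 FPKM in the KO libraries and 96.9, 85.9 and 114 in the WT libraries. The groups overlapped almost in full. On the log2 scale the difference was 0.10 (SE 0.16, 95% interval -0.29 to 0.49, limma adjusted p = 0.775), so this design left room for a fold on the FPKM + 1 scale from 0.819 to 1.40.

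Spaca3 is a lysozyme-like protein of the matrix, encoded on chromosome 11 at 80858365 to 80867814 (plus strand, 6 exons). It was at 83.3, 100.7 and 86.3 FPKM in the KO libraries and 79.3, 70.3 and 97.6 in the WT libraries. WT replicate 2 was the lowest library and WT replicate 3 the second highest. In the limma fit the difference was 0.14 (SE 0.12, 95% interval -0.15 to 0.42, limma adjusted p = 0.612).

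Spaca7 is a secreted acrosomal protein released when the acrosome opens. It lies on chromosome 8 at 12573029 to 12600744 (plus strand, 7 exons), where its exons overlap those of the non-coding gene D630011A20Rik on the other strand, which is not analysed here. Values were 56.5, 73.0 and 67.7 FPKM in the KO libraries and 61.2, 52.2 and 72.1 in the WT libraries. The highest library of each group was nearly the same. The log2 fold change was 0.09 (SE 0.13, 95% interval -0.22 to 0.41, limma adjusted p = 0.750).

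Sun5, the gene of the head-to-tail junction, had the largest difference of the 10. It encodes a SUN-domain protein of the spermatid nuclear envelope, without which sperm heads come off their tails. Its gene lies on chromosome 2 at 153856188 to 153871084 (minus strand, 12 exons). It was at 42.6, 56.4 and 47.1 FPKM in the KO libraries and 37.7, 37.5 and 45.1 in the WT libraries. A single library crossed over, WT replicate 3 lying above KO replicate 1. The means were 48.7 ± 7.07 and 40.1 ± 4.29 FPKM (SD, n = 3 each), or 1.21-fold. That gave a log2 fold change of 0.27 (SE 0.11, 95% interval 0.01 to 0.53), with a limma adjusted p = 0.329. Without KO replicate 2, the highest library, the log2 fold change was 0.16 (limma adjusted p = 0.704). With the mean log2 value of the 12 round spermatid markers set equal in all libraries, it was 0.21 (limma adjusted p = 0.349). The intervals given for single genes are not adjusted for the number of genes.

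**Figure D2:**
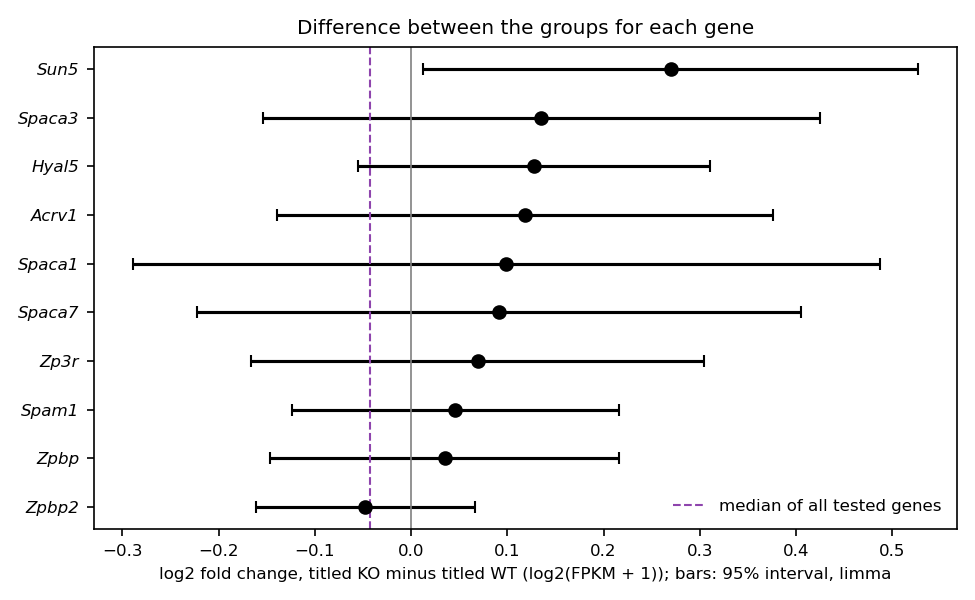
Difference of log2(FPKM + 1) between the KO and the WT libraries for each gene, with its 95% limma interval. The intervals of 9 genes include 0, that of Sun5 begins at 0.01, and the dashed line marks the median of all tested genes, -0.04.

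From the depth and the longest coding transcript, the 10 genes rested on about 1220 (Sun5) to 9330 (Zpbp2) fragments per library. Counting alone would then give an SD of 0.02 to 0.04 on the log2 scale. The SD within groups was 0.05 for Zpbp2, 0.11 for Spam1, 0.18 for Sun5 and 0.24 for Spaca1. These fragment numbers are approximate and cover counting error only.

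Averaged over the 10 genes, the log2 value lay 0.22 above the mean of all libraries in KO replicate 2 and 0.08 above it in WT replicate 3. It lay at -0.14 in WT replicate 2, -0.10 in KO replicate 1, -0.08 in WT replicate 1 and 0.03 in KO replicate 3. KO replicate 2 was the highest library in 9 of the 10 genes, beside 19.3% of all tested genes. WT replicate 2 was the lowest in 6 of the 10 (Hyal5, Acrv1, Spaca1, Spaca3, Spaca7 and Sun5), beside 16.3%. Both held for those same 6, beside 9.36% of all tested genes. The summed level of the 10 genes was 725, 903 and 799 FPKM in the KO libraries and 742, 711 and 836 in the WT libraries.

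Zpbp2 and Spam1 did not follow the others. WT replicate 2, low in the 6 genes above, was the highest library for Zpbp2 and the second highest for Spam1. Across the 6 libraries the likeness of each gene to the mean of the other 9, as a Pearson correlation over values that share library and depth, was 0.879 or more for 8 genes. It was 0.50 for Spam1 and -0.18 for Zpbp2, whose range between libraries was also the narrowest.

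**Figure D3:**
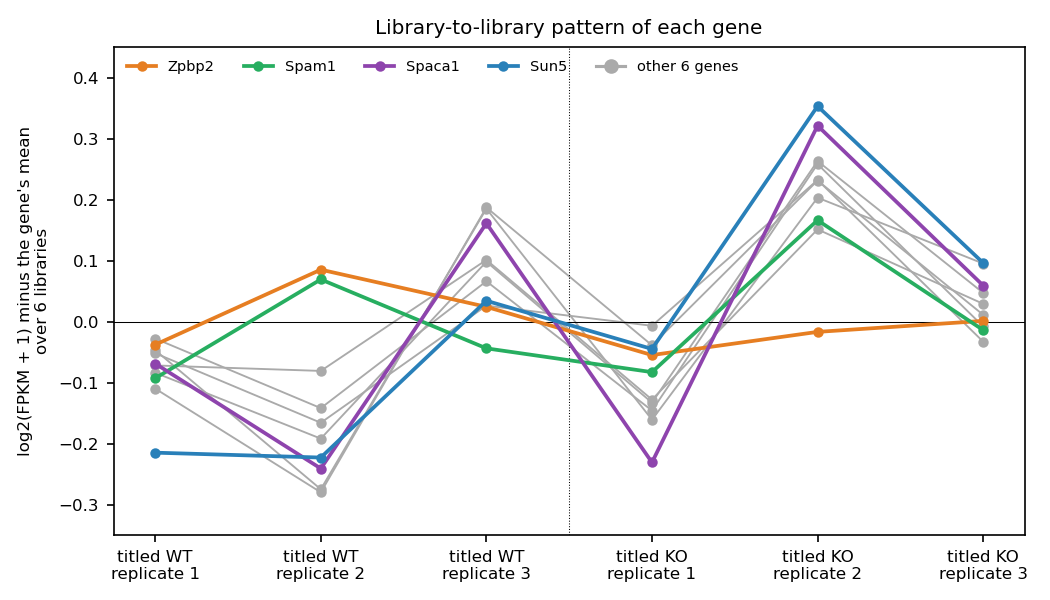
Log2(FPKM + 1) of each gene minus its mean over the 6 libraries, by library. Replicates have no order, and the lines only join the points of a gene. KO replicate 2 is high for all genes but Zpbp2, and WT replicate 2 is low for all but Zpbp2 and Spam1.

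Most round spermatid markers that are not acrosome genes were highest in the same library as most of the 10 genes. Of 12 such markers, KO replicate 2 was the highest library in 10 and WT replicate 2 the lowest in 7. These counts stand beside 19.3% and 16.3% of all tested genes. Tekt4 and Tssk6 were highest in WT replicate 2 and WT replicate 1. The 12 round spermatid markers summed to 2390, 2537 and 2382 FPKM in the KO libraries and 2370, 2254 and 2444 in the WT libraries. The 12 elongating spermatid markers summed to 37820, 40080 and 38860 FPKM in the KO libraries and 34130, 32450 and 36540 in the WT libraries. These sums did not overlap between the groups, but Prm1, Prm2, Tnp1 and Tnp2 made up most of each. Marker by marker, the groups did not overlap in 5 of the 12, beside 21.7% of all tested genes. Of the 12 elongating spermatid markers, limma called 0 (unadjusted p under 0.05: 6 higher and 0 lower), 10 had a log2 fold change above 0, and the median was 0.10. Over all tested genes, limma called 1.15%, 14.3% had an unadjusted p under 0.05, 34.3% were above 0, and the median was -0.04. The 8 macrophage markers summed to 48.9 FPKM in WT replicate 2 and 33.8 to 39.1 FPKM in the other libraries. Without Lyz2, the most abundant of them, the sums were 30.8 FPKM in WT replicate 2 and 23.6 to 26.6 FPKM elsewhere. WT replicate 2 was the highest library for 6 of the 8, and Adgre1 and Cd163 were highest in KO replicate 1. How many of all tested genes were highest in WT replicate 2 was not counted. Of the Sertoli and Leydig cell markers tested, 9 and 8 genes, KO replicate 2 was the highest library in 0, beside 19.3% of all tested genes. The log2 fold changes of these markers were above 0 in 2 of the 9 (median -0.07) and 0 of the 8 (median -0.16). Over all tested genes 34.3% were above 0. The part of these cell types in the values of the 10 genes was not tested.

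The genes most like the mean pattern of the 10 were sought among 5517 other tested genes that averaged 10 FPKM or more. The 5 closest were Lrp2bp (Pearson r = 0.999), Tmem210 (0.999), Micos10 (0.998), Fbxo2 (0.993) and Catsper4 (0.992), each over 6 libraries. Catsper4 encodes a pore subunit of the sperm calcium channel CatSper and ranged from 37.3 to 52.1 FPKM.

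Other genes of the acrosome's contents and membranes were taken as a list of 23, all tested. By limma 1 was higher and 0 lower, beside 0.788% higher and 0.363% lower over all tested genes. At an unadjusted p under 0.05 there were 2 higher and 0 lower, beside 14.3% in either direction. The median log2 fold change of the list was 0.06. The gene that rose was Spaca5, an X-linked gene for a lysozyme-like protein and a relative of Spaca3. It was at 12.4, 14.8 and 15.1 FPKM in the KO libraries and 9.79, 9.12 and 10.7 in the WT libraries, with no overlap between the groups. On the log2 scale the difference was 0.48 (SE 0.09, 1.43-fold, limma adjusted p = 0.0351). Spaca5 lies on the X chromosome, where 14.6% of 508 tested genes were higher. The call ended without KO replicate 2, KO replicate 3, WT replicate 1 or WT replicate 2 (limma adjusted p = 0.104 to 0.157), with the replicate number as a block (0.0952), without robust estimation (0.0607) and without a filter (0.107).

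The most abundant genes of that list did not pass. Spink2, a protease inhibitor of the acrosome, was at 454 ± 21.5 FPKM in the KO libraries against 442 ± 24.2 in the WT libraries (SD, n = 3 each; limma adjusted p = 0.745). Atp8b3, a lipid flippase of the acrosomal membrane, was at 317 ± 19.9 and 340 ± 19.6 FPKM (limma adjusted p = 0.445), and Spaca9 at 256 ± 7.59 and 257 ± 26.6 FPKM (limma adjusted p = 0.994). Acrbp, which binds proacrosin in the matrix, was at 243, 253 and 247 FPKM in the KO libraries and 259, 270 and 263 in the WT libraries. Its groups did not overlap, yet limma did not call it (log2 fold change -0.09, adjusted p = 0.384).

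Of 23 genes for building the acrosome, all tested, limma called 1 higher and 0 lower, beside 0.788% and 0.363% of all tested genes. At an unadjusted p under 0.05 there were 3 higher and 1 lower, beside 14.3% in either direction, and the median was -0.05. Cylc1, which encodes the X-linked cylicin of the cytoskeleton beneath the acrosome, rose from 28.2, 23.6 and 29.2 FPKM in the WT libraries to 39.9, 39.8 and 37.4 in the KO libraries. Like Spaca5 it is one of the X-linked genes, of which 14.6% were higher. The groups did not overlap (log2 fold change 0.52, SE 0.08, 1.45-fold, limma adjusted p = 0.0146). Its call ended without KO replicate 2, KO replicate 3 or WT replicate 1 (limma adjusted p = 0.0552 to 0.0704), with the replicate number as a block (0.0770) and without a filter (0.0600). Actl7a, an actin-like protein that links acrosome and nucleus, was at 211 ± 12.3 FPKM in the KO libraries against 180 ± 11.0 in the WT libraries (SD, n = 3 each; limma adjusted p = 0.158). Its relative Actl9 was at 240 ± 3.89 and 219.9 ± 14.8 FPKM (limma adjusted p = 0.347), Pdcl2 at 314 ± 23.5 and 289 ± 18.6 FPKM (0.432), and Ccdc136 at 318 ± 10.2 and 335 ± 9.68 FPKM (0.465).

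Around Sun5, 12 other genes of the head-to-tail junction were tested, and 0 passed limma's threshold in either direction (unadjusted p under 0.05: 2 and 0). These counts stand beside 1.15% and 14.3% of all tested genes. Their median log2 fold change was 0.01, but -0.045 with round spermatid scaling and 0.057 with median-of-ratios scaling. The most abundant, Oaz3, an antizyme of spermatids, was at 1478 ± 58.98 and 1435 ± 48.6 FPKM in KO and WT libraries (SD, n = 3 each; limma adjusted p = 0.672). Odf1 of the outer dense fibres, Spata6 of the connecting piece and Spata20 had log2 fold changes of -0.04, -0.03 and 0.02. The 2 genes with an unadjusted p under 0.05 were Cep112 (log2 fold change 0.27, limma adjusted p = 0.192) and Pmfbp1 (0.13, limma adjusted p = 0.330). Of the other SUN-domain genes, Sun3 and Spag4 had their highest value in KO replicate 2 and their lowest in WT replicate 2, as Sun5 did. Sun1 was highest in KO replicate 3 and lowest in KO replicate 1, and Sun2 highest in WT replicate 2 and lowest in WT replicate 1. Sun3 was at 46.8, 59.5 and 50.3 FPKM in the KO libraries and 43.1, 36.4 and 52.0 in the WT libraries (log2 fold change 0.25, limma adjusted p = 0.429). Spag4, also called Sun4, was at 106, 132 and 114 FPKM in the KO libraries and 102, 94.2 and 120 in the WT libraries (log2 fold change 0.16, limma adjusted p = 0.503).

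**Figure D4:**
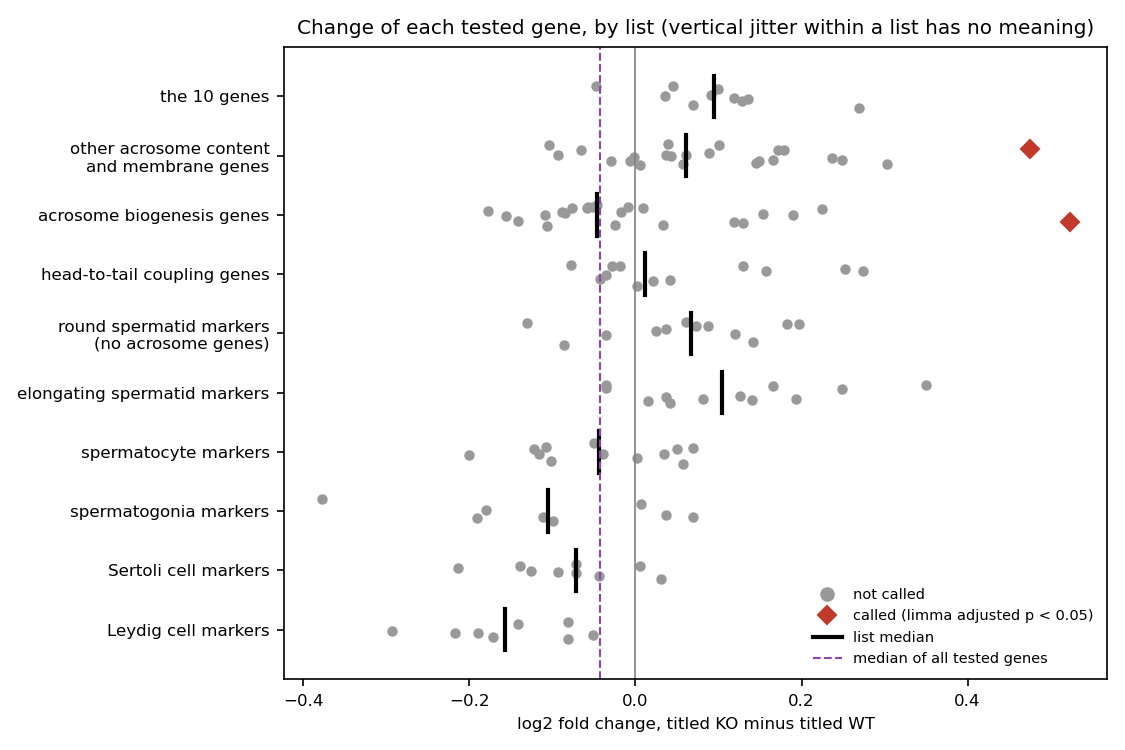
Log2 fold change, KO minus WT, of each tested gene (points), by list, with list medians (black bars) and the median of all tested genes (dashed). The called genes (red diamonds) are Spaca5 at 0.48 and Cylc1 at 0.52, both X-linked, and the 10 genes lie between -0.05 and 0.27.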

How the data were processed

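Total RNA from testis was made into directional libraries, per the labels' protocols, and aligned with HISAT2 to mm10, per the submitters' processing notes. No source used here names the quantifier, the annotation or the strand setting. The deposited values were taken as FPKM, scaled by the authors to length and depth: they are not whole, and in 5945 genes with 1 transcript, value times length clusters at steps of 1 fragment (66 to 92 genes per library at 1 step, 46 to 68 at 2 steps, within 0.02 on the log10 scale).

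Rows were summed per symbol (333 symbols on several rows). Libraries were grouped by title. Genes averaging 1 FPKM or more in either group entered limma 3.58.1 (R 4.3.3, trend and robust options) as log2(FPKM + 1), with Benjamini-Hochberg adjustment and a threshold of 0.05. The test was tried on simulated data. The added 1 makes fold changes of low genes too small. The 10 genes and all lists were chosen with earlier results of these data known. Named beside them are called list members, the 4 most abundant of a list and the 5 genes of most similar pattern. Hyal1 to Hyal4, Hyal6, Sun1 to Sun3, Spag4, Lyz1, Lyz2, Lyzl1, Lyzl4 and Lyzl6 as relatives, and Spata48 as an overlapping gene, were named for what they are. Adgre1, Cd163, Tekt4, Tssk6, Cep112 and Pmfbp1 were named after their values were seen. Positions are from GENCODE M21 (GRCm38, the assembly of mm10). Promoter sequences are from RefSeq (GRCm38.p6), in which all 10 symbols were found, and the first listed start was used for the stretches shown. A gene was counted as holding a motif if any of its listed starts did (Spaca1 and Spaca3 have 2). The shares beside these counts are over windows, and a gene with several starts has several windows. For Zpbp and Spaca3 the bases just after the first listed start were in no GENCODE transcript of the gene. For Spaca3 those after its second listed start were. Transcripts were compared with BLAST 2.17.0, and figures drawn with matplotlib 3.10.9. Alternatives were 2 other pseudocounts, 2 filters, 4 scalings, no robust estimation, a replicate block, symbols on a single row only, and each library left out.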

Additional observations from a re-analysis of the deposited data

How the results depend on the processing

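No alternative brought any of the 10 genes past the limma threshold: over 17 alternatives the smallest adjusted p was 0.182, for Sun5. Of 170 gene and alternative pairs, 163 kept their direction and 7 did not. Many of these pairs could not change direction. The 2 filters, no robust estimation, the replicate block and the single-row setting left each log2 fold change of the 10 genes as it was. Scaling to the round spermatid markers turned Zpbp to -0.021 and Spam1 to -0.010. Leaving out single libraries gave log2 fold changes of -0.032 to 0.11 for Zpbp, -0.042 to 0.16 for Zp3r, -0.026 to 0.10 for Spam1, -0.037 to 0.24 for Spaca1, -0.023 to 0.21 for Spaca7, 0.016 to 0.21 for Acrv1, 0.029 to 0.26 for Spaca3, 0.044 to 0.18 for Hyal5, 0.16 to 0.36 for Sun5 and -0.078 to -0.017 for Zpbp2. Without KO replicate 2, Zpbp (-0.032), Zp3r (-0.042), Spam1 (-0.026) and Spaca1 (-0.037) changed sign, and without WT replicate 2, Spaca7 (-0.023) did. Small values of list genes also changed sign: Oaz3 (-0.014), Spata20 (-0.035) and Spink2 (-0.017) with round spermatid scaling, Odf1 (0.011), Spaca9 (0.044) and Spata6 (0.018) with median-of-ratios scaling, and Spaca9 (0.031) and Spata6 (0.0044) with upper-quartile scaling. Spaca9 ranged from -0.080 to 0.069 with single libraries left out.

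The number of called genes, 149 of all tested, was 88 without a filter, 50 with a replicate block and 73 to 233 with single libraries left out. The target was at -14.89 with a pseudocount of 0.01 (limma adjusted p = 0.0644). The call in the list of acrosome contents (Spaca5, which is also the call among the hyaluronidase, SUN and lysozyme relatives) became 0 without a filter, without robust estimation and with the replicate block, and ranged from 0 to 1 with single libraries left out. The call in the list of acrosome biogenesis (Cylc1) became 0 without a filter and with the replicate block, and ranged from 0 to 1 with single libraries left out.

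Same-numbered libraries did not deviate together (correlations of 0.0647, -0.129 and 0.0614), and differently numbered ones gave -0.249 to 0.197. With 3 libraries per group these values cannot decide whether the numbers pair animals, which the labels do not say. With the replicate block none of the 10 genes was called (Sun5 adjusted p = 0.451).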

Other observations

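Among the lysozyme relatives of Spaca3, Lyzl6 was at 73.1, 103 and 90.1 FPKM in the KO libraries and 76.7, 71.0 and 91.5 in the WT libraries (log2 fold change 0.15, limma adjusted p = 0.626). Lyzl1 was at 52.5, 72.1 and 62.0 FPKM in the KO libraries and 54.9, 47.9 and 61.0 in the WT libraries (log2 fold change 0.18, limma adjusted p = 0.521). In both, KO replicate 2 was the highest and WT replicate 2 the lowest library. Lyzl4 was at 22.9, 29.5 and 24.7 FPKM in the KO libraries and 24.1, 23.4 and 25.9 in the WT libraries, with its lowest value in KO replicate 1. Lyz2, the lysozyme of macrophages, was at 18.0 FPKM in WT replicate 2 and 10.2 to 12.6 FPKM in the other libraries, so it was highest where Lyzl1 and Lyzl6 were lowest. Lyz1 stayed at or below 0.218 FPKM.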
